A study of Mus musculus with 12 samples.

Results

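The response of the neonatal mouse cochlea to β-catenin stabilization, started on the first day after birth, was described across 18400 genes in 6 libraries. These were 3 P1 treated and 3 P1 untreated libraries, of 11 with values among 12 described in the study. These columns were chosen by their labels, and genes were used where their normalized counts averaged 10 or more over the 11 libraries. P1 treated pups were *Sox2-CreER/+; β-catenin-flox(Exon3)/+* and P1 untreated pups were littermates that carried the floxed allele without Cre. Both groups were of a mixed C57BL/6 and CD1 strain and both were exposed to tamoxifen through the milk of mothers given 100 μl at 50 μg/μl on day 1. The cochleae were taken 72 h later, on postnatal day 4, and each library held the epithelium of 2 ears of 1 pup, unpooled, after the mesenchyme and neurons had been loosened from it. The table's values summed to 41.74 to 44.15 M in these 6 libraries. The P4 libraries, used for comparison, were from 2 treated and 3 untreated pups that received tamoxifen on day 4 and were taken on day 7.

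The groups differed by more than exon 3. Cre was active only in cells that express *Sox2*, the CreER sequence sits in the *Sox2* locus, and such alleles lower *Sox2* itself, so that treated and untreated pups also differ in *Sox2* dose. The effect of the CreER allele and the effect of stabilized β-catenin cannot be told apart in this comparison. Sex differed as well. *Xist*, made from the inactive X chromosome, stood at 26, 13 and 22 normalized counts in treated and at 16, 3030 and 2794 in untreated libraries, so that only P1 untreated replicate 1 resembled the treated pups in this respect. With 1 such control, sex and treatment could be told apart only weakly. A fit with *Xist* as a covariate rests mostly on that library.

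β-Catenin is the messenger of canonical Wnt signaling. In resting cells a destruction complex phosphorylates its N-terminal end and the protein is degraded. When Wnt ligands engage Frizzled and LRP receptors, degradation stops, and β-catenin enters the nucleus and binds TCF/LEF factors at target genes, several of which encode inhibitors of the pathway itself. In the newborn cochlea, supporting cells with *Lgr5*, a target gene and R-spondin receptor, can divide and give rise to hair cells, and Notch signals between the cell types restrain this.

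The phosphorylated residues lie in exon 3 of *Ctnnb1*, the stretch that Cre removes, at chr9:120950522-120950749 of mm10 (GRCm38) on the plus strand. It is coding along its whole length and its 228 bases leave the reading frame intact when lost. It is shown 5′ to 3′ because the experiment rests on it, with codons 33, 37, 41 and 45, which encode the serines and the threonine that are phosphorylated, in capitals.
Ctnnb1 exon 3: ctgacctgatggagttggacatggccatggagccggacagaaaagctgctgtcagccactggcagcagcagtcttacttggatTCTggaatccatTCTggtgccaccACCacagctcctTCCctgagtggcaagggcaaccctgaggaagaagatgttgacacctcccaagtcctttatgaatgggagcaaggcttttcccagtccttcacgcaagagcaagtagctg
Total *Ctnnb1* was 25048, 24630 and 24107 normalized counts in treated and 21419, 25308 and 19820 in untreated libraries (adjusted p = 0.59), so that the groups overlapped. Counts per gene do not resolve exons, and the share of transcripts without exon 3 was not measured here. *Sox2* was 4930, 5542 and 6006 in treated and 8042, 10170 and 8121 in untreated libraries, a log2 difference of -0.67 ± 0.101 (SE, adjusted p = 0.030 from limma). In all 3 treated libraries *Sox2* lay below each untreated library.

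Treated against untreated, 65 genes (0.353% of those tested) were called, meaning an adjusted p below 0.05 and a log2 difference beyond 0.32 in size, with 48 higher (0.261%) and 17 lower (0.0924%) in treated libraries. None of these 65 had overlapping groups, which calling them from these same values makes likely. Over all genes 6.95% were higher and 8.33% lower without overlap. The median fold change was 2.24 for the called higher and 2.22 for the called lower genes. Of those called higher, 29 changed over 2-fold and 14 over 4-fold. Of those called lower, 11 changed over 2-fold. With *Xist* as a covariate 7 genes were called, and 3 of them were among the 65 (*Esr1*, *Lgr5* and *Tmem229b*). Against P1 untreated replicate 1 alone, the median log2 difference was 1.08 for the genes called higher and -1.24 for those called lower. These genes were called with that library included, and the part of sex in the differences was not tested further. Of the called genes 2 were X-linked (*Stard8* and *Pcdh19*) and 0 were Y-linked.

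Genes of the Wnt pathway were described by their place in it, in lists written from textbook knowledge. Among 11 ligands tested, *Wnt11*, whose product is best known for signaling that does not use β-catenin, was called. It was 364, 248 and 312 normalized counts in treated and 95, 85 and 99 in untreated libraries, a fold change of 3.25 (adjusted p = 0.0371). No ligand was called without P1 treated replicate 2 or 3, without any single P1 untreated replicate, or with the *Xist* covariate. *Wnt7b* was higher in treated libraries without overlap (9769, 12004 and 10808 against 8605, 8493 and 8330), as was *Wnt5a* (10095, 11674 and 10030 against 8778, 7129 and 8657), but neither was called (adjusted p = 0.168 and 0.251). *Wnt6* and *Wnt16* had lower means at a nominal p, one not adjusted for the number of genes, below 0.05. The ligands had a median log2 difference of -0.04, beside 0.0036 over all genes tested.

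Of 15 Frizzled and LRP receptor genes, *Fzd2* was called lower. Its levels were 2534, 2154 and 2152 normalized counts in treated and 3238, 3287 and 3673 in untreated libraries (log2 difference -0.58 ± 0.0951, SE, adjusted p = 0.0413). No receptor gene was called without P1 treated replicate 2 or 3, without any single P1 untreated replicate, or with the *Xist* covariate. *Fzd1* was lower in each treated than in each untreated library (2803, 2825 and 1760 against 3745, 5059 and 4869) but did not pass (adjusted p = 0.113). *Fzd6* and *Fzd4* differed the other way, by 0.42 and 0.47 (log2), with adjusted p = 0.219 and 0.381. Of the 15 receptor genes, 2 were higher and 3 lower by nominal p. Over all genes, 5.18% were higher and 6.99% lower by the same measure (12.2% in all).

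The R-spondin receptor gene *Lgr5* had the smallest p of the pathway. It stood at 8880, 8822 and 9331 normalized counts in the treated and at 2715, 2727 and 2041 in the untreated libraries. This was a fold change of 3.64 (log2 difference 1.86 ± 0.143, SE, adjusted p = 8.70e-04), and the treated libraries differed from each other by less than the untreated ones did. *Znrf3*, which encodes a ubiquitin ligase that removes Frizzled from the cell surface, was 1071, 1271 and 1095 against 851, 772 and 731, without overlap, and missed the threshold (adjusted p = 0.069). Its partner *Rnf43* overlapped between the groups (log2 difference -0.09, adjusted p = 0.89).

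Among 14 secreted antagonists, *Sfrp2*, which encodes a protein that binds Wnt ligands, was called lower. It was 3190, 2807 and 3350 normalized counts in treated and 4636, 4668 and 5037 in untreated libraries (log2 difference -0.62 ± 0.0821, SE, adjusted p = 0.0183). No antagonist was called without P1 untreated replicate 1 or 3, or with the *Xist* covariate. *Dkk1*, an LRP inhibitor and known target gene, was scarce at 24, 41 and 35 against 3, 7 and 15, and its DKK receptor gene *Kremen1* differed by 0.58 (log2). Neither was called (adjusted p = 0.259 and 0.182).

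Feedback and direct target genes did not have a common direction. Of 26 tested, 4 were called higher, namely *Lgr5*, *Sp5*, *Cd44* and *Tnfrsf19*, and 0 were called lower. By nominal p, 7 were higher and 1 was lower. The median log2 difference of the 26 was -0.01. Without P1 treated replicate 1, 8 were higher and 6 lower by nominal p, and 5 were called higher and 1 lower. Over all 18400 genes that fit called 96 higher and 275 lower (1.49% lower), more than with all libraries. The other fits called fewer of all genes. In the target list 3 were called higher without P1 treated replicate 2 or P1 untreated replicate 2. This number was 2 without P1 untreated replicate 3, and 1 without P1 treated replicate 3 or P1 untreated replicate 1. With the *Xist* covariate it was 1. *Sp5*, a transcription factor gene, was 3446, 2515 and 3100 normalized counts in treated and 624, 1072 and 975 in untreated libraries (fold change 3.45, adjusted p = 0.0469). *Cd44*, a hyaluronan receptor gene, was 7238, 6590 and 7233 against 3408, 3929 and 2745 (fold change 2.11, adjusted p = 0.0136). *Tnfrsf19*, a TNF receptor family gene also called *Troy*, was 34217, 26810 and 30198 against 16970, 19499 and 17480 (fold change 1.69, adjusted p = 0.0248). For these 4 genes every treated library exceeded every untreated one.

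The feedback genes most often read as a measure of Wnt activity gave another picture. *Axin2*, which encodes a scaffold of the destruction complex, stood at 650, 552 and 488 normalized counts in treated and 606, 970 and 687 in untreated libraries (log2 difference -0.40 ± 0.25, SE, adjusted p = 0.591). *Nkd1* was 10767, 7479 and 7967 against 8041, 17574 and 14055 (adjusted p = 0.712). *Notum*, which encodes an enzyme that inactivates Wnt ligands, was 6303, 967 and 2193 against 3412, 13355 and 8904 (log2 difference -1.64, adjusted p = 0.544). In these 3 genes the groups overlapped and the treated mean was not above the untreated one. *Lef1*, a TCF/LEF family gene and target, was 2160, 774 and 1008 against 1895, 3476 and 3358 (log2 difference -1.24, adjusted p = 0.249). Without P1 treated replicate 1 *Lef1* was called lower, at -1.67 (adjusted p = 0.0481 from limma), when 1.49% of all genes were. In *Lef1*, *Notum*, *Wif1*, *Nkd2* and *Vcan*, P1 treated replicate 1 lay nearer to the untreated mean than either other treated library. The same held for the level of the mesenchyme markers, described below, and their part in the levels of these Wnt genes was not tested.

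**Figure D1:**
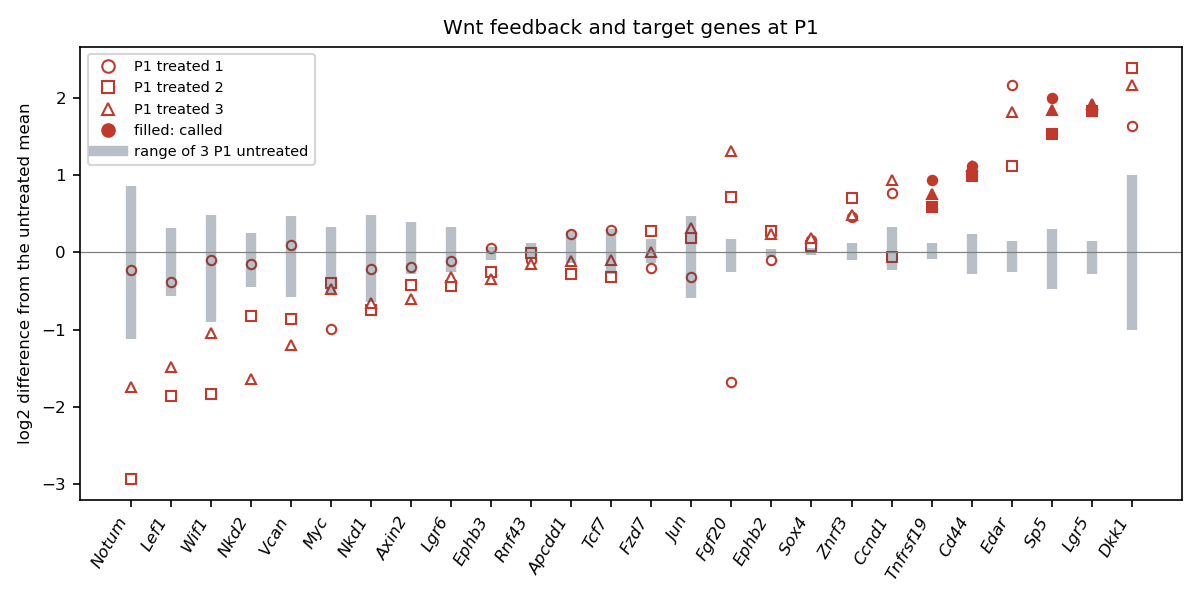
Each of the 26 Wnt feedback and target genes is on the horizontal axis, and the vertical axis gives the log2 difference of each P1 treated library from the mean of the 3 P1 untreated libraries. Grey bars are the range of the untreated libraries and filled symbols mark the 4 called genes, from *Tnfrsf19* at 0.75 to *Lgr5* at 1.86; *Axin2*, *Nkd1* and *Notum* lie below 0 in all 3 treated libraries.

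Of 19 TCF/LEF factors and co-repressors, 6 were lower and 1 was higher by nominal p, and 0 were called in either direction. Without P1 treated replicate 1, 3 of the 19 were called lower, when 1.49% of all genes were. *Tcf7l1*, a family member that mostly represses, was 3422, 3174 and 2431 normalized counts in treated and 4255, 4562 and 4580 in untreated libraries, with adjusted p = 0.0712. The co-repressor gene *Tle2* was 1714, 1184 and 1074 against 1887, 2326 and 2121 (adjusted p = 0.176). *Tle4* differed the other way, by 0.43 (log2, adjusted p = 0.259). Of 20 planar cell polarity genes, *Daam1*, which encodes a formin that links Wnt receptors to actin, was called. It was 6292, 7026 and 7334 against 3809, 3586 and 3488 (fold change 1.89, adjusted p = 0.00232), while its relative *Daam2* was 225, 201 and 157 against 318, 609 and 450 (adjusted p = 0.137). The 17 genes of the destruction complex had a median log2 difference of 0.01 and none was called, with *Apc* the only one with a nominal p below 0.05 (log2 difference 0.47, adjusted p = 0.302).

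Sequences upstream of the called genes were searched for the core TCF/LEF motif, since this is the site that β-catenin complexes use. In RefSeq promoters of GRCm38.p6, 250 bases before to 50 after the start, the letters CTTTGAT on either strand were found in 3.09% of 12550 genes tested that have an entry. Of the genes called higher, 29 had an entry and 5 held the motif (*Sp5*, *Tnfrsf19*, *Wnt11*, *Krtdap* and *Cpz*). Of the 11 genes called lower with an entry, 1 did (*Cubn*). A gene with several starts was counted once. With CTTTGAA added, the shares were 7.32% of the genes tested, 7 of 29 and 2 of 11. The stretches of the 3 Wnt genes among them are printed 5′ to 3′ on the gene's own strand, with the motif or its reverse complement ATCAAAG in capitals.
Sp5, chr2:70474789-70474855, plus strand: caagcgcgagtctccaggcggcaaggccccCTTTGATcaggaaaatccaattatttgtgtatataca
Tnfrsf19, chr14:61038153-61038219, minus strand: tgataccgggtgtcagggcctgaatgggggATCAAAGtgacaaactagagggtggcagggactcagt
Wnt11, chr7:98835031-98835097, plus strand: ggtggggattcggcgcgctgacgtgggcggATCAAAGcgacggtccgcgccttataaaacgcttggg
The motif began 104 bases before the start in *Sp5*, 202 in *Tnfrsf19* and 51 in *Wnt11*. A match of letters is not a measured binding site. *Edar*, which was not called, also held CTTTGAT, 233 bases before its start.
Edar, chr10:58675893-58675946, minus strand: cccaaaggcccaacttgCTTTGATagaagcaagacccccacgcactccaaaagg
*Edar*, the ectodysplasin receptor gene, was 544, 262 and 427 normalized counts in treated and 101, 131 and 134 in untreated libraries, without overlap and with adjusted p = 0.0845.

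Outside the Wnt lists, the call with the smallest p was *Esr1*, which encodes estrogen receptor α. It was 368, 477 and 387 normalized counts in treated and 33, 34 and 23 in untreated libraries, a fold change of 13.4 (log2 difference 3.74 ± 0.228, SE, adjusted p = 1.71e-04). CreER is a fusion of Cre with the hormone-binding part of this receptor and was carried by the treated pups alone, so that reads of the transgene and of the gene itself cannot be told apart in counts per gene. Of the 7 estrogen and estrogen-related receptor genes tested, 3 were above 0 and 4 below, and *Esr1* was the only one called. *Gper1* was 951, 734 and 697 against 1208, 1480 and 1295, and *Esrrg* 145, 158 and 148 against 214, 283 and 434, neither being called (adjusted p = 0.142 and 0.187).

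The other large differences were in genes of varied function. *Gabrg3*, which encodes a GABA receptor subunit, was 531, 180 and 944 normalized counts in treated and 37, 45 and 16 in untreated libraries (fold change 14.5, adjusted p = 0.0248). *Krtdap*, an epidermal differentiation gene, was 267, 194 and 449 against 56, 84 and 52 (fold change 4.51, adjusted p = 0.0209). *Adarb1*, which encodes an RNA-editing enzyme, was 1079, 652 and 1067 against 389, 356 and 329 (fold change 2.54, adjusted p = 0.0216). *Rorb*, a nuclear receptor gene, was 1957, 1665 and 2265 against 1020, 1163 and 792 (fold change 1.99, adjusted p = 0.0415). In each of these 4 genes the lowest treated library was above the highest untreated one, and *Gabrg3* had the widest treated range. The largest fold change, that of *Gm14440* (702, 806 and 1522 against 18, 0 and 4), belongs to a family of near-identical zinc finger genes on chromosome 2 between which reads may be split, and its value is uncertain.

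Some called genes are neighbours. *Cygb* (chr11:116645595-116654313, minus strand) overlaps *Prcd* (chr11:116653534-116668389, plus strand) by 780 bases. *Cryab*, which encodes a small heat shock protein, overlaps *Hspb2*, another member of that family, by 1030 bases at chr9:50751325-50756636 and chr9:50751078-50752354. In both pairs the genes lie on opposite strands, the counting is not stated to use strand, and the 2 values of a pair may share reads. *Prcd* was 1160, 402 and 1132 normalized counts in treated and 86, 96 and 128 in untreated libraries, so that replicate 2 was lowest, as it was in *Cygb*. *Cryab* was 30646, 23154 and 35491 against 14269, 11244 and 12748 (fold change 2.31, adjusted p = 0.0131), and *Hspb2* 761, 637 and 1078 against 338, 272 and 386 (fold change 2.45). The connexin genes *Gjb2* and *Gjb6*, which encode the subunits of the gap junctions between supporting cells and whose loss causes deafness, do not overlap and lie 18.6 kb apart on chromosome 14. *Gjb2* was 38636, 42681 and 41319 against 19891, 26454 and 20564 (fold change 1.85, adjusted p = 0.0209). *Gjb6* was 8035, 8733 and 9317 against 5553, 6311 and 4864 (fold change 1.57, adjusted p = 0.0373). Of 10 cochlear gap junction genes these 2 were called and none of the other 8 had a nominal p below 0.05. None of the 10 was called without P1 treated replicate 2 or 3, without P1 untreated replicate 1 or 3, or with the *Xist* covariate.

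Among the genes called lower, *Trh*, which encodes thyrotropin-releasing hormone, had the largest difference (16, 71 and 5 normalized counts against 1367, 1786 and 1206). *Galr1*, a galanin receptor gene, was 23, 12 and 16 in treated and 50, 68 and 72 in untreated libraries (log2 difference -1.87, adjusted p = 0.0427). *Pcsk2*, which encodes a protease that matures peptide hormones, was 697, 321 and 399 against 1186, 1657 and 1066 (log2 difference -1.52, adjusted p = 0.0475). These 3 genes, chosen for their function after their values were seen, all belong to peptide hormone signaling. *Cubn*, an endocytic receptor gene, was 101, 131 and 56 against 278, 289 and 432 (log2 difference -1.84, adjusted p = 0.0496). *Rab3b*, a vesicle release gene, was 924, 851 and 741 against 2057, 2192 and 1707 (log2 difference -1.24, adjusted p = 0.0131). *Dsg3*, a desmosomal cadherin gene, was close to 0 in treated libraries, at 3, 4 and 3 against 24, 34 and 15 (log2 difference -2.48, adjusted p = 0.0489).

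**Figure D2:**
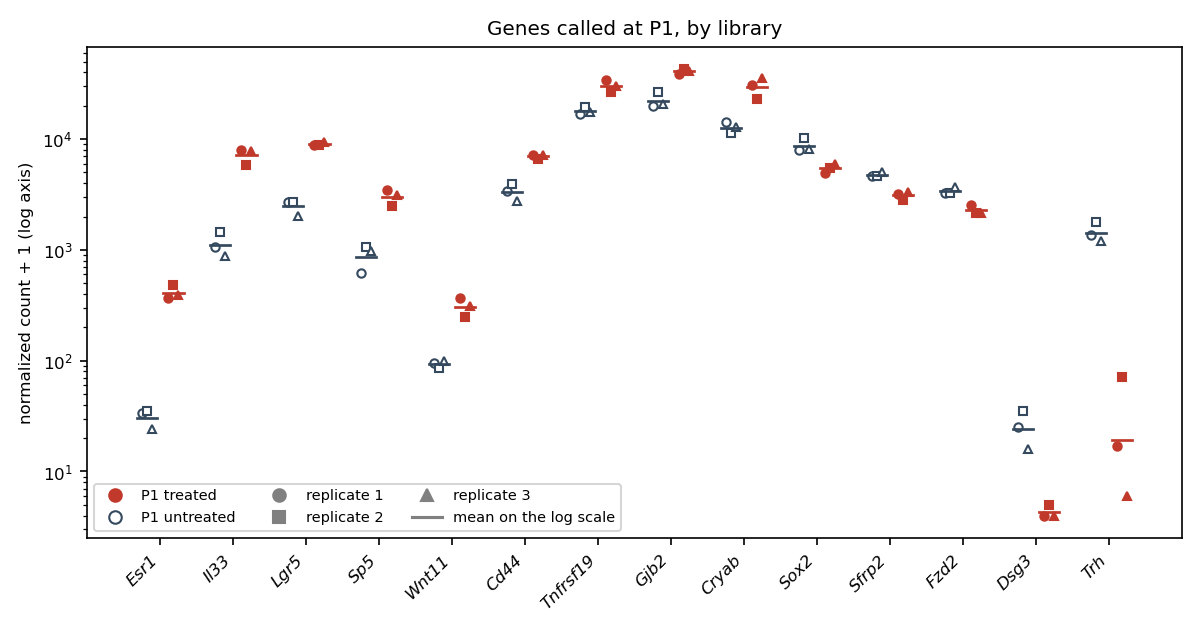
Normalized counts plus 1 on a log axis for 14 genes called at P1, with 1 symbol per library and a bar at the mean on the log scale. Filled red symbols are the 3 P1 treated and open symbols the 3 P1 untreated libraries; the groups do not overlap in any of these genes, with *Lgr5* at 8822 to 9331 against 2041 to 2727 and *Trh* at 5 to 71 against 1206 to 1786.

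Notch receptors and ligands, 12 in all, had 0 called, 2 higher and 0 lower by nominal p, and a median log2 difference of 0.07. *Jag1*, the ligand of supporting cells, was 22245, 31218 and 27014 normalized counts in treated and 18988, 21216 and 13902 in untreated libraries (log2 difference 0.58, adjusted p = 0.242). *Notch1* was 8289, 11413 and 9565 against 7985, 6345 and 6408 (log2 difference 0.49, adjusted p = 0.318). The effector genes differed in sign. *Heyl* was 7533, 8774 and 7628 against 4191, 5771 and 3844 (log2 difference 0.81 ± 0.144, SE) and narrowly missed the threshold (adjusted p = 0.0523). *Hey2* and *Hes1* were higher in mean by 0.38 and 0.39 (log2), and *Hey1* lower by -0.37, with adjusted p = 0.25, 0.40 and 0.276. *Hes5* was 99, 712 and 376 against 737, 571 and 501, with P1 treated replicate 1 far below the other 5 libraries.

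FGF, BMP, TGF-β, EGF receptor, Hedgehog and Hippo genes had 0 called members in their lists of 27, 25, 20, 14, 12 and 20. In the BMP list 5 were higher and 1 was lower by nominal p, with *Bmp7* at 12515, 13769 and 14523 normalized counts in treated and 10989, 9536 and 9163 in untreated libraries (adjusted p = 0.126). Of the 25, 1 was higher without P1 treated replicate 3, when 4.04% of all genes were, and 1 without P1 untreated replicate 1, when 4.92% were. *Fgf3* was 611, 651 and 557 against 315, 324 and 385 (log2 difference 0.83, adjusted p = 0.219) and *Tgfa*, an EGF receptor ligand gene, 2323, 2808 and 2384 against 1658, 1509 and 1842 (log2 difference 0.58, adjusted p = 0.131). *Tgfbi*, which encodes a matrix protein induced by TGF-β, was 7954, 2107 and 1073 against 9665, 9507 and 12598. Its log2 difference of -2.00 (adjusted p = 0.197) rested mostly on P1 treated replicates 2 and 3.

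Cell type lists were counted in the same way. In bulk RNA, fewer cells of a type and less RNA per cell cannot be told apart. The defining markers of the sensory epithelium were high in all 6 libraries, with the tectorial membrane gene *Tecta* at 372453 to 416809 normalized counts. Of 34 pan-hair cell markers tested, 0 were called and 0 had a nominal p below 0.05 in either direction, and their median log2 difference was 0.00. Without P1 untreated replicate 2, 5 of the 34 were higher by nominal p, when 5.33% of all genes were, and the median was 0.16. *Atoh1*, the hair cell fate factor, was 278, 515 and 348 in treated and 397, 378 and 244 in untreated libraries (log2 difference 0.15 ± 0.264, SE, adjusted p = 0.895). *Pou4f3* was 954, 1145 and 1099 against 1106, 1314 and 946 (log2 difference -0.07 ± 0.139, SE, adjusted p = 0.918). None of 14 outer hair cell maturation genes had a nominal p below 0.05 either.

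Supporting cell lists had more members that passed. Of 22 pan-supporting cell markers, *Gjb2* and *Gjb6* were called higher and *Sox2* lower, and 8 were higher and 3 lower by nominal p, with a median log2 difference of 0.22. Without P1 untreated replicate 3, 0 of the 22 were called, 4 were higher by nominal p, when 3.71% of all genes were, and the median was 0.11. None was called either without P1 treated replicate 2 or 3, without P1 untreated replicate 1, or with the *Xist* covariate. *Gata3*, a transcription factor gene of the prosensory domain, was 38903, 43578 and 42937 normalized counts in treated and 28715, 36642 and 29235 in untreated libraries (adjusted p = 0.192). *Slc1a3*, which encodes the glutamate transporter GLAST of inner border and phalangeal cells, went the other way, at 6191, 4964 and 4380 against 8212, 8193 and 6821 (log2 difference -0.59, adjusted p = 0.113). Of 16 pillar and Deiters cell markers, *Cryab* was called and 5 were higher and 0 lower by nominal p, with a median of 0.26. In the Hensen and Claudius cell list of 12, *Aqp4*, a water channel gene, was 4310, 3405 and 5791 against 2026, 3050 and 2126 (adjusted p = 0.209), and 0 were called.

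The greater epithelial ridge, the columnar cells medial to the hair cells that secrete the tectorial membrane, had 3 of 20 markers called higher, which were *Lgr5*, *Gjb2* and *Lum*. *Lum*, which encodes the matrix proteoglycan lumican, was 100463, 94107 and 132049 normalized counts in treated and 64459, 60859 and 66546 in untreated libraries (fold change 1.68, adjusted p = 0.0364). *Itih5*, a gene of hyaluronan binding, was 36322, 39073 and 40451 against 28026, 28079 and 23800 without overlap (adjusted p = 0.0696). *Tgfbi*, another of the 20, was the one member lower by nominal p. The list's median log2 difference was 0.18. Only 1 member was called without P1 treated replicate 3, without P1 untreated replicate 1 or 3, or with the *Xist* covariate. *Lgr5*, *Gjb2*, *Gjb6* and *Lum* stand in more than 1 list, so that the counts of these lists are not independent.

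Matrix genes differed in sign. Of 35 collagen genes 5 were higher and 7 lower by nominal p, and 0 were called. *Col9a2*, a tectorial membrane and cartilage collagen gene, was 230718, 219199 and 232779 normalized counts in treated and 171403, 167121 and 183004 in untreated libraries (log2 difference 0.39, adjusted p = 0.126). *Col18a1*, of the basement membrane, was 84270, 89548 and 88744 against 65885, 64138 and 57944 (log2 difference 0.48, adjusted p = 0.192). The fibrillar and microfibrillar genes *Col5a1* and *Col6a2* had the opposite sign, at -0.47 and -0.85 (adjusted p = 0.163 and 0.108). In the list of metalloproteases, ADAMTS proteases and TIMPs, 9 of 25 were lower and 2 higher by nominal p, with a median of -0.55. The mean log2 level of that list was 9.66, 9.18 and 9.16 in treated and 9.7, 9.69 and 9.74 in untreated libraries, so that P1 treated replicate 1 stood beside the untreated ones. Without it 6 of the 25 protease and inhibitor genes and 6 of the 35 collagen genes were called lower, when 1.49% of all genes were. Without P1 treated replicate 3, 5 of the 25 were lower by nominal p.

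Markers of other cell types differed in level between the groups. Of 19 mesenchyme and fibrocyte markers, 11 were lower and 0 higher by nominal p, with a median of -1.39. The mean log2 level of the list was 11.15, 10.07 and 9.48 in treated and 11.19, 11.3 and 11.53 in untreated libraries, so that P1 treated replicate 1 lay just below the untreated range and the other treated libraries well below it. Among its genes, *Otor*, which encodes the secreted protein otoraplin, was 18319, 8619 and 5811 normalized counts against 29464, 43117 and 49727 (adjusted p = 0.157). *Emcn*, an endothelial gene, was 2349, 576 and 420 against 4537, 6760 and 7009 (log2 difference -2.85, adjusted p = 0.14). Macrophage markers stood at a mean log2 level of 7.85, 6.7 and 6.93 against 8.31, 8.07 and 7.98, and 14 of 19 were lower by nominal p (median -1.07). The number was 8 without P1 treated replicate 2, when 6.74% of all genes were lower, 9 without P1 treated replicate 3, when 4.94% were, and 8 without P1 untreated replicate 1, when 5.92% were. Neither list had a called member. Beside them, 12 of 40 interferon response genes and 7 of 20 NF-κB and cytokine response genes were lower by nominal p, with medians of -0.41 and -0.48 and 0 called. Without P1 treated replicate 3 these numbers were 6 and 4. The part that these levels had in the differences of matrix, Wnt feedback, TCF/LEF, Wnt antagonist, NF-κB and interferon genes was not tested. Without P1 treated replicate 1, 10 of the 19 mesenchyme markers and 5 of the 19 macrophage markers were called lower, when 1.49% of all genes were.

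Endothelial and strial markers were mixed. *Clec14a*, an endothelial gene, was called higher (fold change 4.41, adjusted p = 0.00273 from limma). It was 3915, 3229 and 3450 normalized counts in treated and 830, 661 and 924 in untreated libraries. In contrast, 4 of the 17 endothelial and pericyte markers were lower by nominal p. Other endothelial markers were scarce, such as *Cdh5* (42, 18 and 12 against 34, 40 and 40) and *Cldn5* (68, 12 and 17 against 6, 12 and 70). *Egfl7* was not, at 1212, 886 and 1283 against 1107, 1141 and 1221. The cells that gave the *Clec14a* and *Emcn* counts were not identified. Marginal cell markers of the stria vascularis had a mean log2 level of 7.98, 9.76 and 7.32 in treated and 8.54, 6.92 and 7.76 in untreated libraries. That list was highest in P1 treated replicate 2 and lowest in P1 untreated replicate 2, so that the groups overlapped.

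Nerve-associated markers did not follow 1 direction. Schwann cell and glia markers had a median log2 difference of 0.23, with 2 of 14 higher and 0 lower by nominal p. Spiral ganglion neuron markers had a median of -0.42 with 4 of 17 lower by nominal p, and P1 untreated replicate 3 had the highest level of that list (9.1 against 7.15 to 7.89 in the other 5 libraries). Without that library the median was 0.01, with 1 higher and 0 lower by nominal p, when 5.04% of all genes were lower. Neutrophil, lymphocyte and mast cell markers mostly did not pass the filter on low values, with 6 of 18 tested.

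Cell cycle genes were higher in mean, with 56 of 60 G2 and M phase genes above 0 and a median log2 difference of 0.51, but 0 of them were called. The level of this list was 7.98, 7.13 and 8.74 (mean log2) in treated and 7.61, 7.11 and 7.48 in untreated libraries, so that P1 treated replicate 3 was highest and replicate 2 lay inside the untreated range. *Mki67*, a marker of cycling cells, was 225, 92 and 582 normalized counts against 252, 86 and 127, and *Ccnb1*, the mitotic cyclin gene, was 437, 156 and 767 against 240, 109 and 224 (adjusted p = 0.717 and 0.483). By nominal p, 8 of the 60 were higher. The number was 36 without P1 treated replicate 2, when 5.92% of all genes were higher. It was 3 of the 60 without P1 treated replicate 3, when 4.04% of all genes were. It was 4 without P1 untreated replicate 2 or 3, when 5.33% and 3.71% of all genes were. For 52 S phase genes the median was 0.22, with 11 higher and 0 lower by nominal p. Without treated replicates 2 and 3, 20 and 5 were higher, when 5.92% and 4.04% of all genes were. Without P1 untreated replicate 1, 7 were, when 4.92% of all genes were. *Cdkn1a*, which encodes the cell cycle inhibitor p21, was 9813, 4665 and 7676 against 2737, 3362 and 3451, without overlap (log2 difference 1.16 ± 0.231, SE, adjusted p = 0.0829). *Ccnd1* overlapped between the groups (2769, 1557 and 3089 against 2036, 1509 and 1387).

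Energy and protein synthesis genes had medians near 0. Of 47 nuclear respiratory chain genes and 12 mitochondrially encoded genes, 0 had a nominal p below 0.05 (4 higher in the first list without P1 treated replicate 2), with median log2 differences of 0.02 and 0.00. Of 77 ribosomal protein genes 1 did. Of 30 sterol and fatty acid synthesis genes 6 were higher and 0 lower, among them *Fasn*, fatty acid synthase, at 15856, 19090 and 16666 normalized counts in treated and 13346, 12604 and 12451 in untreated libraries (adjusted p = 0.0599). Unfolded protein response genes had 3 of 20 lower, with *Xbp1* at 6923, 6300 and 6175 against 7878, 8022 and 8374 (adjusted p = 0.105).

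**Figure D3:**
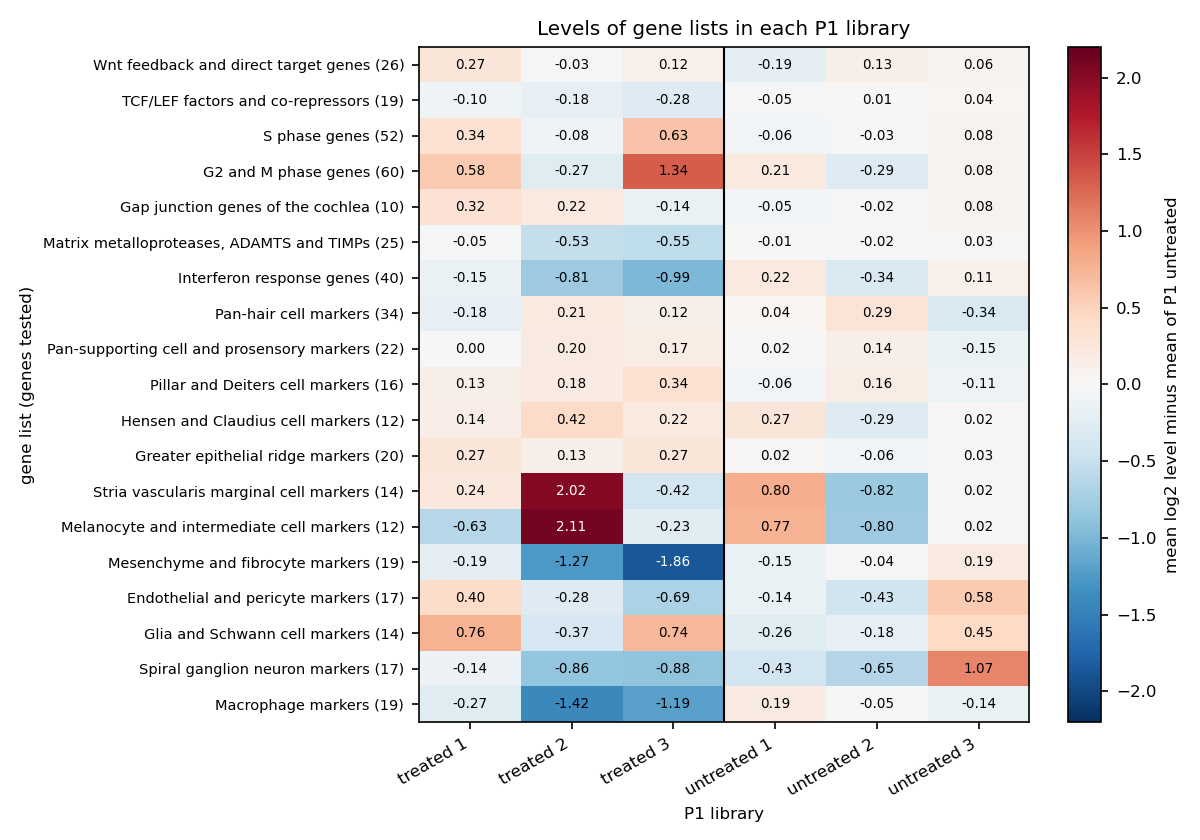
For 19 gene lists (rows, with the number of genes tested) and the 6 P1 libraries (columns), colour and printed number give the mean log2 level minus the mean of the 3 untreated libraries. Mesenchyme markers were at -0.19, -1.27 and -1.86 and G2 and M phase genes at 0.58, -0.27 and 1.34 in treated replicates 1, 2 and 3, while pan-hair cell markers stayed between -0.34 and 0.29 in the 6 libraries.

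The treated replicates differed from each other more than the untreated ones. Over all 18400 genes the median SD of log2(normalized count + 1) was 0.223 among treated and 0.178 among untreated libraries, and 61.8% of genes had the larger SD in treated libraries. The median ratio of these SDs was 1.28. SDs above 1 were found for 7.05% of genes in treated and 5.07% in untreated libraries. Pearson's r across genes, which are not independent, was 0.9581 to 0.9647 between treated, 0.9671 to 0.9734 between untreated and 0.9483 to 0.9702 between treated and untreated libraries.

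The called genes did not share this spread. Their median SD was 0.198 among treated and 0.216 among untreated libraries, which is in part a matter of selection, since a small SD helps a gene to be called. Against the untreated mean, the median of the genes called higher was 1.15, 1.02 and 1.28 (log2) in treated replicates 1, 2 and 3, and that of the genes called lower was -0.96, -1.13 and -1.41. The genes were called from these same values, so that the closeness of the 3 medians does not measure how alike the replicates are. In the first principal component of the 6 libraries, which held 33.4% of the variance, the treated libraries were at -4.32, 27.75 and 79.45 and the untreated ones between -42.86 and -25.07. Treated replicate 3 was farthest from the controls and replicate 1 nearest.

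Each treated library had genes of its own. P1 treated replicate 2 was farthest from the other treated libraries in 7399 genes, replicate 1 in 5541 and replicate 3 in 5420. Counting instead the genes over 2-fold from the mean of the other treated libraries, replicate 1 had 1810, replicate 2 had 1586 and replicate 3 had 1732, so that the order depended on the measure. In replicate 2 the pigment cell genes stood out. *Dct*, a melanin enzyme gene, was 0, 1590 and 6 normalized counts in treated and 261, 1 and 24 in untreated libraries. *Tyr*, which encodes tyrosinase, was 16, 288 and 12 against 59, 13 and 12, and *Gpnmb* was 16, 591 and 6 against 112, 1 and 23. P1 untreated replicate 1 had the next highest values of these 3 genes, so that this variation was found in both groups.

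In replicate 3 the genes farthest below the other treated libraries included *Oc90*, which encodes the main protein of otoconia and is made by cells around the sensory epithelium. It was 94341, 129706 and 659 normalized counts in treated and 187387, 302 and 55610 in untreated libraries. *Vmo1* (12615, 7627 and 50 against 13276, 7 and 7117) and *Pcdh20* (1761, 1270 and 12 against 1701, 4 and 496) followed the same pattern over the 6 libraries. P1 treated replicate 3 and P1 untreated replicate 2 were the low libraries in each case, so that *Oc90* varied by over 2 orders of magnitude within both groups and its difference between them was not called (adjusted p = 0.976). Other genes of replicate 3 were copies of ribosomal protein genes, such as *Rps2-ps13* (2, 0 and 410 against 5, 8 and 0) and *Rpl15-ps2* (7, 5 and 769 against 6, 6 and 0), whose reads may be shared with the parent genes and whose values are uncertain.

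In replicate 1, *Cyp26a1*, a retinoic acid degrading enzyme gene, was at 0 when the other treated libraries were at 197 and 185 and the untreated ones at 125, 0 and 5. *Hoxa2* was 76, 1 and 6 normalized counts in treated and 71, 149 and 51 in untreated libraries, and *Cbln4* was 253, 0 and 4 against 216, 927 and 405. In *Hoxa2* and *Cbln4* replicate 1 lay with the untreated libraries, as it did in the mesenchyme list.

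**Figure D4:**
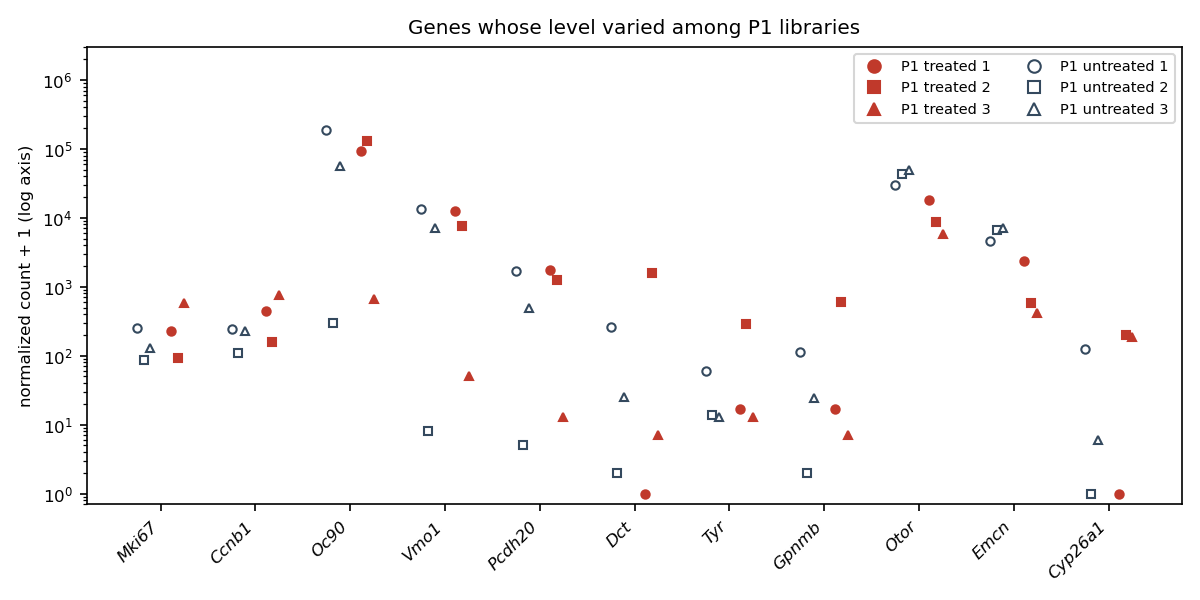
Normalized counts plus 1 on a log axis for 11 genes whose level varied among the P1 libraries, with filled symbols for the 3 treated and open symbols for the 3 untreated libraries. *Oc90*, *Vmo1* and *Pcdh20* are low in treated replicate 3 and untreated replicate 2, *Dct*, *Tyr* and *Gpnmb* are highest in treated replicate 2, and *Mki67* spans 92 to 582 in the treated libraries.

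The P4 pups are other animals, and their values were set beside those of the 65 genes. Of the 65, 60 had the same sign at P4, 45 of 48 higher and 15 of 17 lower, where 50.4% of all genes were above 0 at P4. With the same sign, 45 had a nominal p below 0.05 at P4, where 6.26% of all genes were higher and 5.38% lower by that measure, and 0 had such a p with the opposite sign. In the P4 comparison 10 genes were called (0.0543%), and 7 of them were among the 65, among them *Esr1*, *Il33*, *Trh*, *Daam1*, *Pcdh19* and *Zfand1*. *Il33*, a cytokine gene of the IL-1 family, was 4513 and 3367 normalized counts in P4 treated and 432, 238 and 426 in P4 untreated libraries. *Esr1* was 492 and 594 against 33, 36 and 42. *Pcdh19*, a protocadherin gene, differed by -1.15 (log2) at P1 and -1.34 at P4. The CreER allele is common to the treated pups of both ages, and *Xist* was 4180 and 3268 in P4 treated and 33, 32 and 39 in P4 untreated libraries, the reverse of most P1 pups.

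For 57 of the 65 genes the P4 difference was smaller than that at P1. The median of the genes called higher was 1.16 (log2) at P1 and 0.62 at P4, and that of the genes called lower was -1.15 and -0.65. The genes were chosen by their P1 values, which favours larger values at P1. *Lgr5* differed by 1.08 at P4 (7306 and 6352 against 3103, 2763 and 3934, adjusted p = 0.0697) and *Sp5* by 0.81 (859 and 751 against 316, 758 and 402, adjusted p = 0.396). *Gabrg3* was 98 and 76 normalized counts in P4 treated and 89, 108 and 108 in P4 untreated libraries, and *Krtdap* 283 and 249 against 280, 295 and 327. In *Gabrg3* and *Krtdap* no P4 treated library was above the P4 untreated range.

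Whether the response differed between ages was tested by the interaction of treatment and age. It called 0 genes (0% of 18400) with limma, with 1067 genes (5.8%) at a nominal p below 0.05 and a smallest adjusted p of 0.0546. Among the 65 the smallest adjusted p was 0.405, for *Stard8*, which was 1314, 1425 and 1529 normalized counts against 702, 672 and 703 at P1 and 1013 and 955 against 912, 814 and 910 at P4. A difference between the ages was therefore not shown for single genes. *Axin2* and *Notum*, not called at P1, differed by -0.03 and -2.89 (log2) at P4 and were not called there (adjusted p = 0.978 and 0.339).

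**Figure D5:**
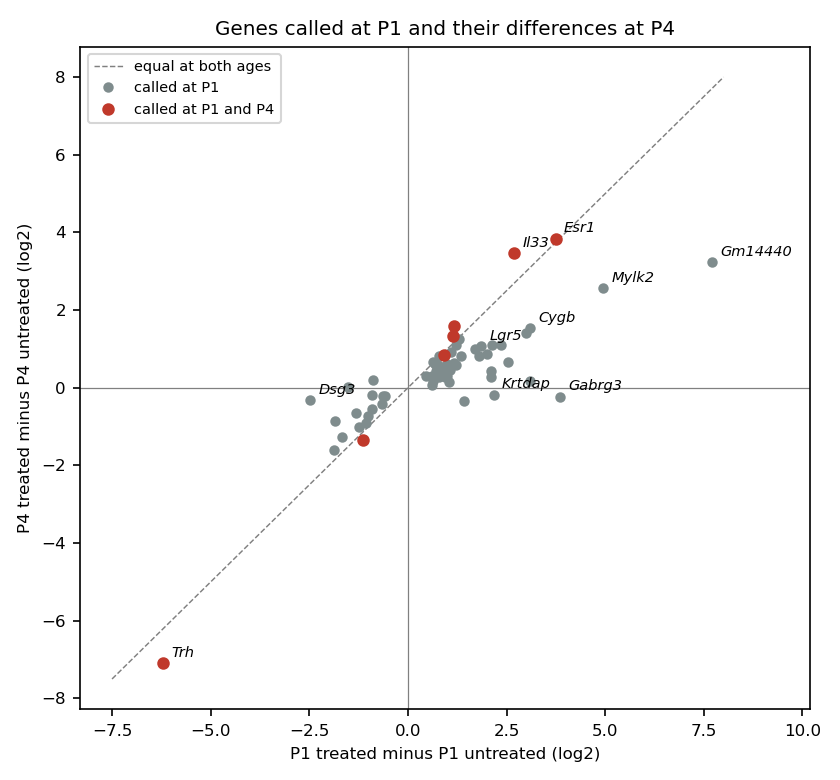
For the 65 genes called at P1, the log2 difference between treated and untreated libraries at P1 (horizontal axis) and at P4 (vertical axis), with red points for the 7 genes called at both ages and a dashed line where both are equal. *Trh* (-6.21 and -7.09), *Esr1* (3.74 and 3.84) and *Il33* (2.69 and 3.46) lie near or beyond the line, while *Gabrg3* (3.86 and -0.23) lies far from it.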

How the data were processed

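RNA of 11 cochlear libraries was read from the authors' table of normalized counts, a score that they deposited as whole numbers after scaling each library by a size factor. Alignment was to mm10 with STAR 2.5.2b, with featureCounts for quality control. The authors quantified transcripts with Sailfish, summed them per gene with tximport and used DESeq2. P4 treated replicate 2 had no column of values and so was not analysed here. Of 27755 entries, 1 with a repeated ID was left out. Sums were 41.74 to 44.15 M in the 6 P1 libraries, and no interval for counting error was derived.

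Groups were compared on log2(normalized count + 1), by limma 3.58.1 in R 4.3.3 (4 group means, eBayes with trend, Benjamini-Hochberg), which understates changes of low genes; count models were not used. Called means adjusted p under 0.05 and a log2 difference beyond 0.32 in size. In a simulated P1 comparison of 18400 genes, the test called 68% of those changed 2-fold and 85% of those changed 4-fold, with 7 unchanged genes also called. The changed genes were drawn only from genes at levels above those the filter requires, with independent normal noise. Recovery of low genes was therefore not simulated. The 62 lists, the rule for named genes (called genes, a panel, up to 4 further members of a list, checks, and genes in which 1 treated library stood apart) and the members were chosen with earlier results of these data known. The replicates are single pups. Alternatives were other pseudocounts, filters, scalings and thresholds, a fit without trend or with the P1 libraries alone, an *Xist* covariate, a replicate block, leaving out chromosomes X and Y or each library and, added after seeing the data, weights per library. Some called genes and list members are not reported here.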

Additional observations from a re-analysis of the deposited data

Results flagged for a closer look

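In 8 of the 290 genes named, the libraries at P1 and at P4 were separated by treatment in opposite directions. The difference between ages did not pass the interaction test in any of these 8. Such genes were not counted over all genes tested, so that the number 8 cannot be set against a background share. The log2 differences at P1 and P4 were -0.89 and 0.2 for ENSMUSG00000095041, 1.41 and -0.33 for ENSMUSG00000097348, 1.16 and -0.22 for *Cdkn1a*, 1.37 and -1.28 for *Nxnl1*, a photoreceptor thioredoxin gene, and -0.32 and 0.19 for *Dnajb9*, a chaperone gene of the endoplasmic reticulum. They were 0.42 and -0.14 for *Fasn* and 1.01 and -0.28 for *Tie1*, an endothelial receptor gene. *Eif2s3y*, a Y-linked gene, had 5.47 and -6.98, and here the pups' sex differed between the groups in opposite ways at the 2 ages.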

How the results depend on the processing

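The number of genes called at P1 depended on the fit, and none of the 65 changed sign in any alternative. In place of 65 called, 48 higher and 17 lower, the counts were 7, 6 and 1 with the *Xist* covariate (3 of the 65 kept), 12, 12 and 0 without the trend, 40, 31 and 9 without a filter, 10, 8 and 2 with the P1 libraries alone, and 135, 86 and 49 at an adjusted p under 0.1; weights per library gave 10 lower. Leaving out 1 library gave 11 to 371 called, 10 to 96 higher and 1 to 275 lower: 371 without P1 treated replicate 1 (all 65 kept), 13 without P1 treated replicate 3, 19, 43 and 11 without P1 untreated replicates 1, 2 and 3 (10, 32 and 11 kept). With the replicate block 32, 26 and 6 were called. Same-numbered libraries did not deviate together across genes (r -0.0499, -0.0605 and -0.0053). No pairing by replicate number was thus seen, but such values cannot exclude litters shared between the groups. The interaction called 2 genes with the *Xist* covariate, 1 each without the trend, with a pseudocount of 0.5, with quantile scaling and at an adjusted p under 0.1, and 0 to 14 on leaving out 1 library (14 without P4 treated replicate 3, 11 without P1 untreated replicate 1). The ratio of treated to untreated SD was 0.916 to 1.61 on leaving out 1 library, which sets SDs of 2 libraries against SDs of 3 and so says little of any 1 library. Sign at P4 and list medians moved less. Of 1166 alternative values of the called genes 672 stayed called and 494 did not. Of 1115 list medians 19 moved by more than the spread. With 3 pups a group, a 2-fold change was often missed. The causes of these changes were not tested.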

Other observations

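Some groups of genes were measured that belong to no comparison above. Of 28 immediate early genes, 0 were higher and 2 lower by nominal (unadjusted) p below 0.05, among them *Klf2* at 986, 1186 and 229 normalized counts in treated and 1225, 2817 and 2171 in untreated libraries. Their mean log2 level was 10.17, 11.31 and 10.23 in treated and 10.31, 10.9 and 10.7 in untreated libraries, and without P1 treated replicate 2, 8 were lower and 1 higher, with a median log2 difference of -0.50 in place of -0.06. Of 26 p53 target genes, 2 were higher and 5 lower, with *Cdkn1a* at the largest log2 difference (1.16) and *Bbc3*, a cell death gene, at 571, 442 and 467 against 605, 849 and 832. Of 27 hypoxia and glycolysis genes, 4 were higher and 3 lower. *Slc2a3*, a glucose transporter gene, was 55, 53 and 81 against 201, 259 and 177 (log2 difference -1.75, adjusted p = 0.069 from limma), whereas *Hk2*, hexokinase, was 790, 518 and 620 against 483, 361 and 256 (log2 difference 0.83, adjusted p = 0.176).

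Of 13 thyroid hormone genes, 2 were higher and 2 lower by nominal p, *Trh* among them, with a median log2 difference of 0.09. *Hr*, a target and co-repressor of thyroid hormone receptors, was 1114, 1123 and 1128 normalized counts in treated and 574, 823 and 555 in untreated libraries (log2 difference 0.81, adjusted p = 0.0893). The receptor gene *Thrb* was 6440, 7956 and 9106 against 6125, 6030 and 5262 (adjusted p = 0.21). The transporter gene *Slco1c1* was 493, 108 and 186 against 591, 1614 and 1232 (adjusted p = 0.176). None of these 3 was called.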
